A study of Mus musculus with 9 samples.

Results

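The 10 genes described here are NF-kB targets and feedback genes of inflammatory signalling: Nfkbia, Nfkbiz, Nfkb1, Relb, Tnfaip3, Zfp36, Socs3, Cxcl2, Ptgs2 and Icam1. They were taken by symbol from a list of 10 names, all 10 were found among 52550 gene identifiers in the count table, and all 10 passed the filter on low counts. Low-input RNA sequencing had been run on 9 libraries of haematopoietic stem cells, the source of all blood lineages. Wild-type mice gave 2 groups of 3 libraries, young WT (2 months of age) and old WT (22 to 24 months). The third group, old KO, had 3 libraries from animals of the same old age with a mutant Sphk2 gene, which encodes sphingosine kinase 2. The genotype label of the old KO group reads B6N.129S6-Sphk2tm1Rlp/J with Sphk2 cKO in brackets, the sample titles say KO, and no Cre is named. Each was made from 1000 bone marrow cells of the surface phenotype Lin- Sca1+ c-Kit+ CD48- CD150+. Because the labels speak of technical replicates and name no animal, all p-values cover the spread between libraries only, which may be technical.

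NF-kB is a family of dimeric transcription factors that are held inactive in the cytoplasm by IkB proteins. Ligands such as tumour necrosis factor and interleukin-1 activate a kinase complex that marks IkB for destruction, and the freed dimers enter the nucleus and switch on genes for chemokines, adhesion molecules and survival factors. Among the first genes switched on are the brakes of the response: new IkB protein, enzymes that edit ubiquitin chains, and proteins that destroy inflammatory mRNAs through AU-rich elements in their 3′ ends. In haematopoietic stem cells the same signals are known to drive emergency blood formation.

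Promoters of the genes were searched for letters that NF-kB and other factors of the inflammatory response are known to bind. RefSeq promoters of the GRCm38.p6 assembly (250 bases before to 50 after the start) were at hand for 7 of the 10 genes, the exceptions being Nfkbiz, Nfkb1 and Relb. These were 8 windows, 2 of them of Tnfaip3. The kB consensus was found on either strand in those of Nfkbia, Cxcl2 and Tnfaip3 and in 4.51% of 32851 promoters of 300 bases. The related letters GGANNTTCC, which can overlap the consensus, occurred in the promoters of Nfkbia, Icam1, Cxcl2 and Tnfaip3 and in 4.26% of all. The stretches that hold these matches are printed 5′ to 3′ along the gene's strand, with the matches in capitals.
Nfkbia, chr12:55492652-55492840, minus strand: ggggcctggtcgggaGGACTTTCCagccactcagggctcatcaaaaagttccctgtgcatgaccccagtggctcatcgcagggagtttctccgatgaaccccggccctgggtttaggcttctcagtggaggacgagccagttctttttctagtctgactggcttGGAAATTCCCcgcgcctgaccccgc
Icam1, chr9:21015772-21015810, plus strand: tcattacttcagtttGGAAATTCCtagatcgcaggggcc
Cxcl2, chr5:90903787-90903827, plus strand: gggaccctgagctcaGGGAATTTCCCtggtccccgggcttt
Tnfaip3, chr10:19015411-19015438, minus strand: gactGGAATTTCCatcGGAAATCCCCct
The Nfkbia promoter held 2 separate matches, and in Tnfaip3 the matches lay within 28 bases of the RefSeq start, inside the longer GENCODE span of the gene. A further Tnfaip3 match to the consensus, 125 to 116 bases before the start, lies outside the printed stretch. The other Tnfaip3 window, chr10:19011914-19012213, held 0 matches to any of the letters searched. All Tnfaip3 matches named here are those of the window that holds the printed stretch. The promoter windows of Zfp36, Socs3 and Ptgs2 held neither kind of letters. The letters TTCNNNGAA, the core recognised by STAT factors, occurred in the windows of Zfp36, Icam1 and Socs3 and in 8.30% of all promoters. Of the other letters searched, TGANTCA (AP-1) occurred in the window of Tnfaip3 and in 7.81% of all, TGACGTCA (CREB) in those of 0 of the 7 genes and in 1.79% of all, and TATAAA in those of Nfkbia, Icam1 and Tnfaip3 and in 13.6% of all. Such matches describe the sequence and are not measured binding sites.

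The other shared sequence feature is the AU-rich element of the 3′ UTR, to which Zfp36 protein (tristetraprolin) binds and thereby marks an mRNA for decay. The letters TATTTAT, with overlapping matches counted, occurred 7 times in the annotated 3′ UTR of Cxcl2, 6 times in that of Ptgs2 and 3 times in that of Zfp36 itself. Nfkbia, Tnfaip3, Socs3 and Icam1 had 2 matches each, and Nfkbiz, Nfkb1 and Relb had 0. Of 21014 genes with a 3′ UTR in the GENCODE M21 annotation, 25.6% held at least 1 match, 9.36% at least 2, 3.61% at least 3, 0.395% at least 6 and 0.224% at least 7. A stretch of 29 bases is printed for the 4 genes in which such a stretch holds 2 or more matches, as DNA letters with the matches in capitals.
Cxcl2: tTATTTATTTATctatgTATTTATTTATt
Ptgs2: ctgaccaTATTTATTTATTTATgtgaaga
Zfp36: cttTATTTATgacgacttTATTTATtgta
Socs3: tgcacataTATTTATATTTATactcagaa

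Levels are given as CPM, counts in a gene scaled to the library's total over all genes, and levels of different genes are compared only per kb of exon. Counts in genes were 28088637 to 74021822 in young WT, 3145167 to 5115003 in old WT and 11284847 to 17544945 in old KO libraries, so that 3 counts are worth 0.0405 to 0.107, 0.587 to 0.954 and 0.171 to 0.266 CPM. Counts outside annotated genes made up 6.51% to 12.5% of all counts in young WT, 80.8% to 87.7% in old WT and 45.0% to 61.9% in old KO. Because of this difference a background was taken from the read density over olfactory receptor genes, which are silent in blood. A gene was called above background in a library when its count reached 20 and was 5 or more times what this density predicts for its exons. By this rule 7377 to 8122 protein-coding genes were above background in young WT, 638 to 1126 in old WT and 2878 to 4171 in old KO libraries. Sphk2 had 1684, 88 and 576 counts in young, 20, 1 and 35 in old WT, and 12, 23 and 8 counts in KO libraries. It was above background in no old library, so its counts do not check the labels. Of 10 stem cell markers (Kit, Slamf1, Hlf, Procr and others), 9 were above background in 2 or more libraries of young WT, 8 in 2 or more of old KO and 0 in 2 or more of old WT. Summed over the 10 markers, the level was 1332 to 1530 CPM in young WT, 137 to 1909 CPM in old WT and 1134 to 2745 CPM in old KO.

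The genes formed a steep order of levels in which Zfp36 and Nfkbia were far above the rest. In young WT, Zfp36 had 1922 ± 346 CPM per kb and Nfkbia 292 ± 95.8, and their library ranges did not overlap with each other or with any other member (SD, n = 3). Nfkbiz (28.4 ± 4.42 CPM per kb), Socs3 (21.7 ± 16.7), Tnfaip3 (12.3 ± 8.28), Nfkb1 (11.1 ± 7.30), Icam1 (8.46 ± 9.40) and Relb (4.83 ± 4.16) followed, with neighbours in this order overlapping. Cxcl2 and Ptgs2 were last, at 0.13 ± 0.05 and 0.08 ± 0.09 CPM per kb, and were not above background in any young WT library. The order in old KO was Zfp36 (1888 ± 244 CPM per kb), Nfkbia (1354 ± 216) and Socs3 (325 ± 102), with ranges that did not overlap, and then Nfkbiz, Icam1, Tnfaip3, Cxcl2 and Ptgs2 between 120 and 28.1. By these means Nfkb1 (12.1 ± 9.16 CPM per kb) and Relb (3.66 ± 2.64) were lowest there. The Ptgs2 mean of 28.1 ± 46.7 rested on old KO library 3, at 82.0 CPM per kb. In old KO libraries 1 and 2 Ptgs2 had 0.811 and 1.49 CPM per kb, below both Nfkb1 and Relb.

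**Figure D1:**
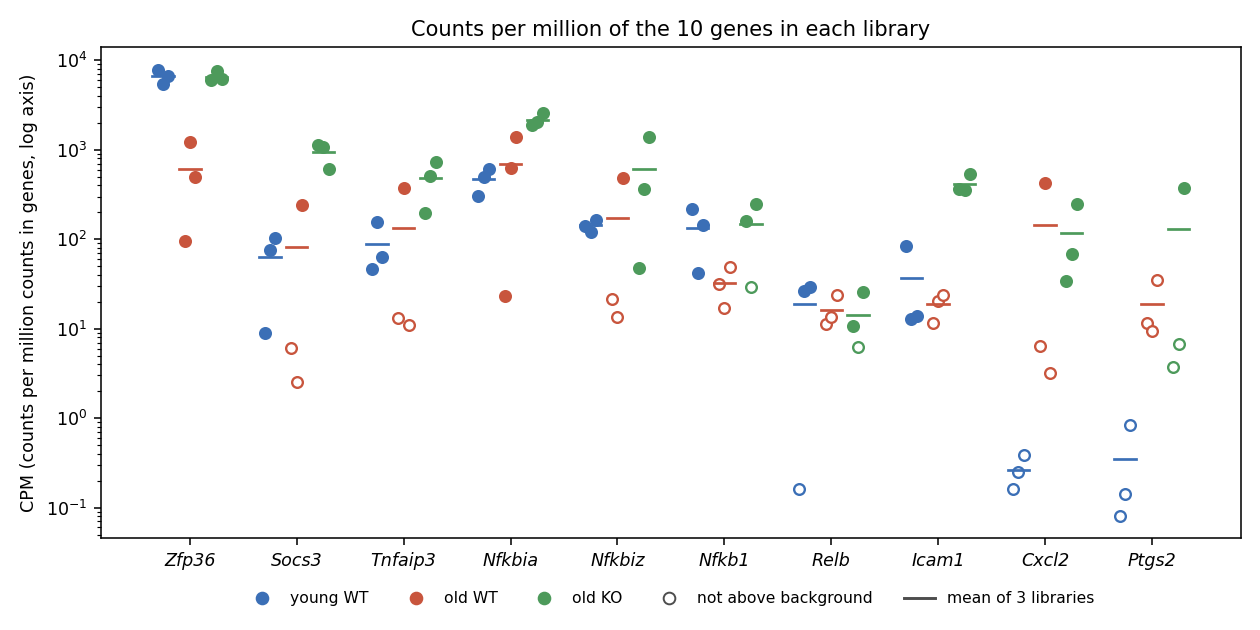
CPM of each of the 10 genes (log axis) in the 3 libraries of young WT, old WT and old KO; filled points are above background, open points are not, and bars are means. The old WT points of most genes are open or spread over more than a factor of 10, while Zfp36, Nfkbia, Socs3 and Icam1 have old KO points above every old WT point.

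The number of members above background was 7, 8 and 8 of 10 in the young WT libraries, 2, 4 and 4 of 10 in old WT, and 9, 7 and 10 of 10 in old KO. Among all protein-coding genes it was 7377 to 8122 in young WT, 638 to 1126 in old WT and 2878 to 4171 in old KO libraries. Summed over the 10 genes, the length-scaled level was 2532, 1973 and 2398 CPM per kb in young WT, 64.2, 1017 and 1222 CPM per kb in old WT, and 3460, 4077 and 4312 CPM per kb in old KO. The old WT sums were the lowest and the old KO sums the highest, with no overlap between groups. Zfp36 alone made up 80.0% to 89.6% of the young WT sums, 11.7% to 43.4% of those of old WT, and 41.1% to 53.2% of the old KO sums. Nfkbia held 7.44% to 15.7% of the young WT sums, 22.3% to 71.6% of those of old WT, and 31.3% to 37.0% of the old KO sums. The order of old WT below young WT rested on Zfp36. The 8 genes other than Zfp36 and Nfkbia together had 74.8, 86.0 and 100.2 CPM per kb in the young WT libraries, 22.0, 272 and 204 for old WT, and 550.2, 634 and 940 for old KO, so that 2 of the 3 old WT libraries lay above young WT. Without Zfp36 alone the sums were 800.2, 936 and 1127 CPM for young WT libraries, against 136, 1507 and 2271 CPM for those of old WT. Fewer cells expressing a gene and less RNA per cell cannot be told apart in such bulk libraries.

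**Figure D2:**
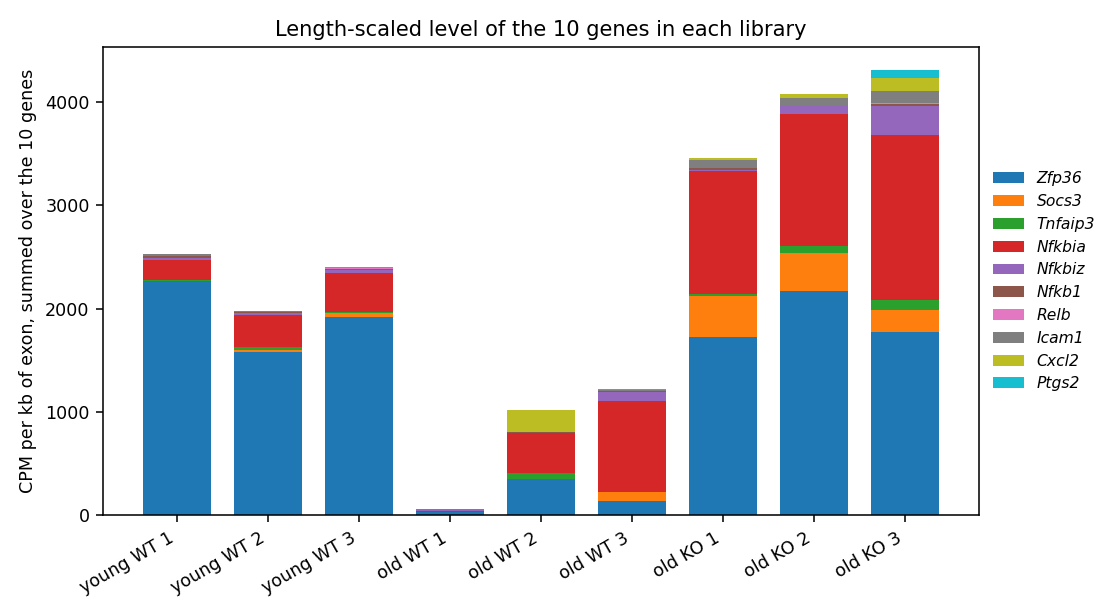
Length-scaled level (CPM per kb of exon, stacked) of the 10 genes in each of the 9 libraries. Zfp36 fills most of the young WT bars, old WT library 1 is nearly empty at 64.2, and the old KO bars, at 3460 to 4312, hold larger Nfkbia and Socs3 segments.

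Among the inhibitors and subunits, only Nfkbia had old KO levels entirely above those of both other groups. No comparison of these 4 genes passed the main test, edgeR with library totals of all 9 libraries. In old WT against young WT, TMM factors called Nfkbia, Nfkbiz and Nfkb1 lower, beside 18.4% of all genes. DESeq2 called all 4 lower there, beside 19.8%. In old KO against old WT DESeq2 called Nfkbia, Nfkbiz and Nfkb1 higher, beside 6.23%. Nfkbia encodes IkB alpha, the main inhibitor that retains NF-kB dimers in the cytoplasm and is itself remade after activation (ENSMUSG00000021025, GRCm38 chromosome 12, 55489410 to 55492647). Its level was 303, 498 and 608 CPM in the young WT libraries, 23.1, 633 and 1408 CPM in the old WT libraries and 1912, 2054 and 2572 CPM in the old KO libraries. All 3 old KO libraries lay above all 6 others, and the old WT libraries spanned the whole range of young WT. The log2 fold change of old KO against young WT was 2.21 ± 1.01 (SE; edgeR quasi-likelihood test, adjusted p = 0.0707 after Benjamini-Hochberg), which did not pass 0.05. With only those 6 libraries in the fit it passed (adjusted p = 0.00857), and so it did without old WT library 1 (adjusted p = 0.0193) or 3 (adjusted p = 0.0498), while DESeq2 gave a log2 fold change of -0.0038. Old KO against old WT gave 1.66 ± 1.00 (adjusted p = 0.221) and old WT against young WT 0.55 ± 0.97 (adjusted p = 0.631, same edgeR test). The latter turned to -3.59 with TMM factors, which passed.

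Nfkbiz encodes IkB zeta, a nuclear relative of the inhibitors that helps NF-kB activate secondary genes (ENSMUSG00000035356, chromosome 16, 55811375 to 55838899). It had 140, 122 and 166 CPM in the young WT libraries, 21.3, 13.7 and 479 CPM in the old WT libraries and 47.3, 363 and 1400 CPM in the old KO libraries. The young libraries were close together, whereas 1 old WT library and 2 old KO libraries stood above them, and the groups overlapped. No comparison passed the main test. Log2 fold changes were 0.26 ± 1.28 for old WT against young WT (adjusted p = 0.866), 1.82 ± 1.32 for old KO against old WT (adjusted p = 0.289) and 2.08 ± 1.34 for old KO against young WT (adjusted p = 0.185, edgeR). The first of these was -4.20 with TMM factors, which passed, and -3.03 without old WT library 3.

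Nfkb1 encodes p105, the precursor of the p50 subunit (ENSMUSG00000028163, chromosome 3, 135584655 to 135691547). It had 217, 41.8 and 143 CPM in the young WT libraries, 31.3, 17.2 and 48.4 CPM in the old WT libraries and 161, 29.4 and 249 CPM in the old KO libraries. The 3 young WT libraries and 2 of the old KO libraries were above background for it, against 0 of old WT. The log2 fold change of old WT against young WT was -2.05 ± 1.13 (adjusted p = 0.114, edgeR) and did not pass, whereas DESeq2 gave -6.34 (adjusted p = 5.90e-08) and edgeR with TMM factors -6.38 (adjusted p = 0.00955). The span of Nfkb1 overlaps that of Gm43430, an unconfirmed transcript on the same strand, and any effect on its counts was not tested.

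Relb encodes the subunit of the alternative pathway that pairs with p52 (ENSMUSG00000002983, chromosome 7, 19606217 to 19629438). Its level was 0.162, 26.6 and 29.5 CPM in the young WT libraries, 11.3, 13.4 and 24.1 CPM in the old WT libraries and 10.7, 6.20 and 25.8 CPM in the old KO libraries. Young WT library 1, the deepest, stood apart with 12 counts, and no old WT library was above background. Relb was the member with the smallest differences in the 2 old WT comparisons, with log2 fold changes of -0.21 ± 1.33 against young WT and -0.19 ± 1.33 for old KO against old WT, which became 2.05 with TMM factors (adjusted p = 0.898, 0.907 and 0.777, edgeR). Old KO against young WT gave -0.40 ± 1.33 (adjusted p = 0.811). DESeq2 called Relb lower in old WT against young WT (adjusted p = 0.00585).

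Of the 3 feedback genes, Tnfaip3 passed no main test, that is, edgeR with library totals of all 9 libraries. In the same test Zfp36 fell in old WT and Socs3 rose in old KO, each against young WT. Beside these calls stand 3.48% of all genes tested called lower in the first comparison and 52.7% called higher in the second. Zfp36 encodes the mRNA decay factor named above (ENSMUSG00000044786, chromosome 7, 28376784 to 28380253). It had 7872, 5474 and 6663 CPM in the young WT libraries, 96.6, 1223 and 496 CPM in the old WT libraries and 5975, 7521 and 6157 CPM in the old KO libraries. By CPM per kb it ranked 32, 53 and 38 among protein-coding genes in the young WT libraries, but only 634, 150 and 217 in old WT, and 46, 26 and 41 in KO libraries. The 3 old WT libraries lay below all 6 others, while young WT and old KO overlapped. Zfp36 fell in old WT against young WT by a log2 fold change of -3.46 ± 0.78 (n = 3 each; edgeR, adjusted p = 0.00124). It also passed the test in this comparison under all 7 other settings and without each of the 9 libraries, where the fold change lay between -4.49 and -2.96. Old KO against old WT gave 3.44 ± 0.78, which did not pass the main test (edgeR, adjusted p = 0.146). The same difference passed with TMM factors (5.25, adjusted p = 0.0376), after removal of background (3.18, adjusted p = 0.0431), in the 6 libraries alone (3.44, adjusted p = 0.0404) and with DESeq2 (4.85, adjusted p = 1.3e-05). Old KO against young WT gave -0.03 ± 0.71 (adjusted p = 0.978), but -2.52 with DESeq2 (adjusted p = 0.0350) and 0.05 after removal of background. The span of Zfp36 overlaps that of its antisense neighbour Gm44710, and the strand setting of the counting is not given in the sources used here. Any effect of this overlap on the counts was not tested.

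Socs3 encodes a suppressor of cytokine signalling that blocks JAK kinases and is induced by STAT3 (ENSMUSG00000053113, chromosome 11, 117966079 to 117970047). It had 9.04, 76.7 and 102 CPM in the young WT libraries, 6.06, 2.54 and 239 CPM in the old WT libraries and 1147, 1072 and 603 CPM in the old KO libraries. Every old KO library exceeded every other library, and 1 old WT library held nearly all the signal of its group. Socs3 rose in old KO against young WT by 3.91 ± 1.47 (log2; edgeR, adjusted p = 0.0339). This call was lost without old KO library 1 (adjusted p = 0.0528) or 2 (adjusted p = 0.0590) and without young WT library 1, 2 or 3 (adjusted p = 0.105, 0.0688 and 0.0526). It was also lost with TMM factors (1.93, adjusted p = 0.265), with DESeq2 (1.82, adjusted p = 0.241), with the stricter filter (3.91, adjusted p = 0.0866) and after removal of background (3.98, adjusted p = 0.221). Old KO against old WT was 3.51 ± 1.44, which did not pass (adjusted p = 0.159), and old WT against young WT 0.40 ± 1.31 (adjusted p = 0.801), which turned to -3.86 both without old WT library 3 (adjusted p = 0.0123) and with TMM factors (adjusted p = 0.0485).

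Tnfaip3 encodes A20, an enzyme that edits ubiquitin chains and shuts off signalling from tumour necrosis factor receptors (ENSMUSG00000019850, chromosome 10, 19000910 to 19015657). It had 45.9, 157 and 63.1 CPM in the young WT libraries, 13.1, 375 and 11.0 CPM in the old WT libraries and 199, 513 and 737 CPM in the old KO libraries. The old KO libraries were above all young WT libraries, and old WT library 2 was the only old WT library above background. Old KO against young WT gave 2.44 ± 1.29 (log2; edgeR, adjusted p = 0.111), which passed in the 6 libraries alone (adjusted p = 0.0311) and without old WT library 2 (adjusted p = 0.0477). Old WT against young WT was 0.58 ± 1.23 (adjusted p = 0.689) and turned to -2.88 without old WT library 2 (adjusted p = 0.0385) and to -3.00 with TMM factors (adjusted p = 0.0972). DESeq2 called Tnfaip3 lower in this comparison, as it did 19.8% of all genes. Old KO against old WT was 1.86 ± 1.26 (adjusted p = 0.261).

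The 3 targets were called higher in old KO against young WT, as were 52.7% of all genes tested, and none of the 3 calls was kept after removal of background. Cxcl2 and Ptgs2 were read at less than 1 CPM in young WT, and Ptgs2 was above background in only 1 old KO library. Icam1 encodes an adhesion molecule that binds leukocyte integrins (ENSMUSG00000037405, chromosome 9, 21015985 to 21028817). It had 84.2, 12.7 and 13.7 CPM in the young WT libraries, 11.7, 20.7 and 24.1 CPM in the old WT libraries and 363, 352 and 530 CPM in the old KO libraries. The old KO libraries lay above the 6 others, and no old WT library was above background. Icam1 rose in old KO against young WT by 3.49 ± 1.12 (log2; edgeR, adjusted p = 0.0185), a call lost without young WT library 2 (adjusted p = 0.0674) or 3 (adjusted p = 0.0628), while without young WT library 1 the value was 4.97. It was also lost with TMM factors (1.17, adjusted p = 0.425), with DESeq2 (0.71, adjusted p = 0.599) and after removal of background (3.56, adjusted p = 0.212). Old WT against young WT was -0.97 ± 1.03 (edgeR, adjusted p = 0.413) and turned to 0.51 without young WT library 1. TMM factors and DESeq2 both called Icam1 lower in this comparison, beside 18.4% and 19.8% of all genes. Against old WT the difference was 4.46 ± 1.17 and did not pass (adjusted p = 0.148), although it did with DESeq2 (6.09, adjusted p = 3.6e-07) and in the 6 libraries alone (adjusted p = 0.0403). The span of Icam1 overlaps that of the antisense gene Gm47079, and here too any effect on the counts was not tested.

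Cxcl2 encodes a chemokine that attracts neutrophils (ENSMUSG00000058427, chromosome 5, 90903871 to 90905938). In young WT it had 12, 7 and 12 counts, which are 0.162, 0.249 and 0.387 CPM. The level was 6.45, 423 and 3.19 CPM in old WT and 34.3, 68.8 and 248 CPM in old KO. Old KO libraries were all above background, but among old WT libraries only the second was, with 1331 counts beside 33 and 11 in the others. Cxcl2 rose in old KO against young WT by 8.76 ± 2.02 (log2; edgeR, adjusted p = 0.00889), and the call was kept without each of the 9 libraries (7.58 to 9.20) but not after removal of background (9.19, adjusted p = 0.180). It was also called higher in old WT against young WT (9.06 ± 2.04, adjusted p = 0.00124), though not after removal of background (9.68, adjusted p = 0.0520). Without old WT library 2 the fold change was 4.17 (adjusted p = 0.0136), beside a median of 5.30 over all genes tested in the fit of all libraries. Old KO against old WT was -0.30 ± 1.44 (adjusted p = 0.865) and turned to 4.60 without old WT library 2.

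Ptgs2 encodes cyclooxygenase 2, the inducible enzyme of prostaglandin synthesis (ENSMUSG00000032487, chromosome 1, 150100031 to 150108227). It had 6, 4 and 26 counts in young WT (0.0811, 0.142 and 0.838 CPM), 11.5, 9.54 and 35.1 CPM in old WT and 3.72, 6.82 and 375 CPM in old KO. Only old KO library 3, with 6588 counts, was above background. Ptgs2 was called higher in old KO against young WT (8.50 ± 2.06, adjusted p = 0.00927), which was 3.89 without old KO library 3 (adjusted p = 0.0281) and 10.1 without young WT library 3, and higher in old WT against young WT (5.72 ± 1.83, adjusted p = 0.0102, edgeR). Beside this second value stands the median of all genes tested, 5.30; with TMM factors it was 1.62 and did not pass (adjusted p = 0.399), and without young WT library 3 it was 7.34. After removal of background neither passed (9.26, adjusted p = 0.180, and 5.80, adjusted p = 0.101), and DESeq2 gave no adjusted p for this gene. Old KO against old WT gave 2.78 ± 1.59 (adjusted p = 0.209) and turned to -1.83 without old KO library 3.

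Counted over the 10 genes, old WT against young WT had 2 called higher (Cxcl2 and Ptgs2) and 1 called lower (Zfp36), while 68.4% of all 32582 genes tested were called higher and 3.48% lower. With TMM factors 1 member was called higher and 6 lower, beside 18.6% and 18.4% of all genes. DESeq2 called 1 higher and 8 lower, beside 31.9% and 19.8%. After removal of background only Zfp36 was called, lower, beside 0.0508% of 17716 genes higher and 0.0621% lower. By ranges of CPM, Cxcl2 and Ptgs2 were entirely higher and Zfp36 entirely lower in old WT, as were 65.0% and 5.87% of all genes tested. The median log2 fold change was 0.33 over the members, 5.30 over all genes tested and -0.81 over the 8596 genes that were above background in at least 2 libraries of a group. TMM factors moved the fold change of all genes by a median of -3.90 here, by 1.88 in old KO against old WT and by -2.01 in old KO against young WT.

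In old KO against old WT, 0 of 10 members and 2 of all genes (0.00614%, both higher; 0.0% lower) were called by edgeR. At an unadjusted p under 0.05 there were 3 members (Zfp36, Socs3 and Icam1), beside 953 genes that were higher and 8575 that were lower. DESeq2 called 6 members higher (Nfkbia, Nfkbiz, Nfkb1, Zfp36, Socs3 and Icam1) and none lower, beside 6.23% and 0.463% of all genes. With TMM factors edgeR called Zfp36 alone, higher, beside 0.457% of all genes, and after removal of background again Zfp36 alone, beside 0.079% of genes higher and 0.0113% lower. Nfkbia, Zfp36, Socs3 and Icam1 had old KO ranges of CPM entirely above old WT, which held for 1.91% of all genes tested and 7.15% of the 8596 genes above background. No member had the reverse, which held for 48.8% of all genes tested. The median log2 fold change was 2.02 over the members, with 8 of 10 above 0, -1.91 over all genes tested and -0.46 over the 8596 genes. This comparison and the one of age share the old WT libraries, so their values are set side by side only.

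In old KO against young WT, 4 members were called higher (Socs3, Cxcl2, Ptgs2 and Icam1) and 0 lower, where 52.7% of all genes tested were called higher and 3.93% lower. TMM factors left Cxcl2 and Ptgs2, both higher, beside 6.92% of all genes higher and 5.84% lower. DESeq2 called Cxcl2 higher and Zfp36 lower, beside 14.3% and 13.7%. After removal of background 0 members were called, beside 0.0226% of genes higher and 0.0% lower. Nfkbia, Tnfaip3, Socs3, Cxcl2, Ptgs2 and Icam1 had old KO ranges entirely above young WT, as did 53.5% of all genes tested. The reverse held for no member and for 4.06% of all genes. Of the 8596 genes above background, which do not include Ptgs2, 5.21% had old KO ranges entirely above young WT. Cxcl2 is among these 8596 genes only through its old KO libraries. The medians were 2.33 over the members, 3.24 over all genes tested and -0.64 over the 8596 genes. Counts outside genes took a larger share in both old groups, as given above, and the part of this in the result was not tested beyond the fit after removal of background.

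**Figure D3:**
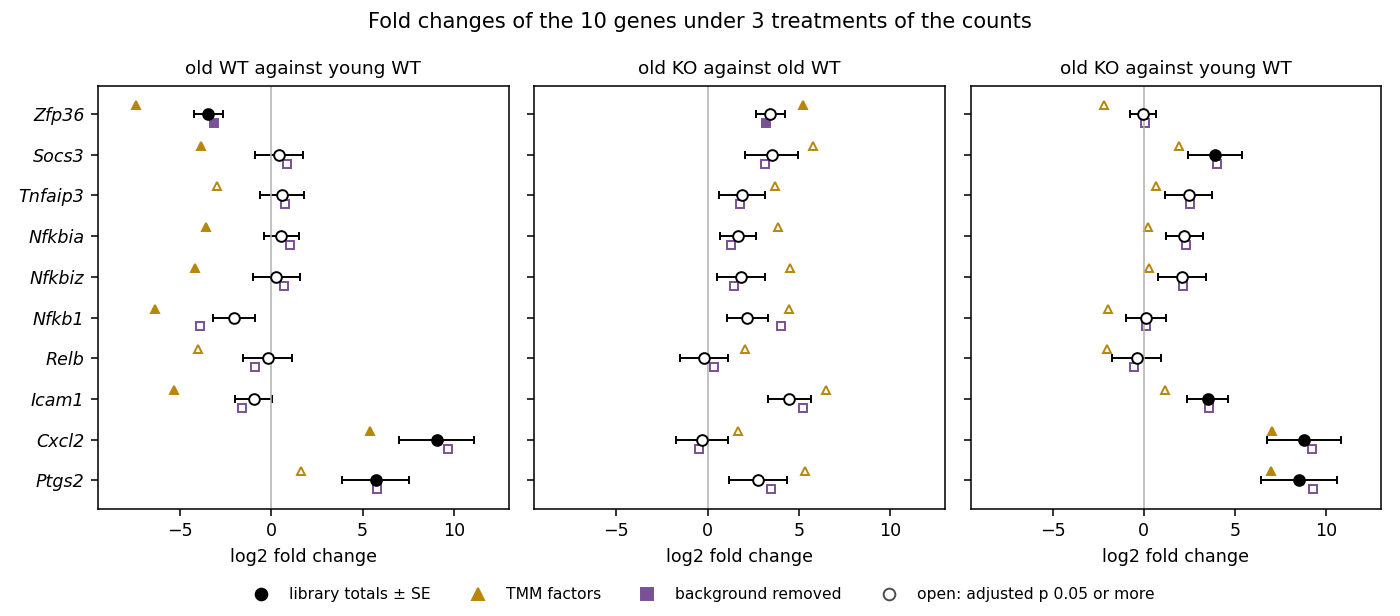
Log2 fold changes of the 10 genes in the 3 comparisons: circles with SE from library totals, triangles with TMM factors, squares after removal of background; filled symbols passed an adjusted p of 0.05. Zfp36 is filled in old WT against young WT under all 3 treatments, and TMM factors move nearly all points to the left against young WT and to the right against old WT.

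Myeloid cells are known to express several of these genes when activated. Of 10 myeloid markers, 4 were above background in at least 2 of the young WT libraries; the number was 1 for old WT libraries and 2 for those of old KO. Csf1r, Adgre1, Itgam and Ly6g were above background in 0 of the 9 libraries, and the other 6 in at least 1. S100a8 was above background in all 6 WT libraries and in old KO library 1, and Lyz2 in every library but old WT libraries 2 and 3. S100a9 was above background in young WT libraries 1 and 2 and old KO libraries 1 and 2, and Mpo in the 3 young WT libraries. Elane was so in young WT library 3, old WT library 3 and old KO library 1, and Cd14 in old KO library 3. The summed level of the 10 myeloid markers was 213 to 396 CPM in young WT, 58.2 to 669 CPM in old WT and 29.3 to 380 CPM in old KO, and these ranges overlapped. Lyz2 carried most of it in old KO libraries 1 and 3 (185 and 371 CPM), and S100a8 in old WT library 3 (541 CPM). The sum was 280, 29.3 and 380 CPM in the old KO libraries. Of 6 markers each of B cells, of T and NK cells and of stroma and endothelium, 0 were above background in 2 or more libraries of either old group, and of 6 erythroid markers 1 was in old KO. In young WT 5 of the 6 erythroid markers were, with a sum of 105 to 442 CPM, above the 31.5 to 50.8 CPM of old WT and the 10.3 to 82.3 CPM of old KO. The T and NK markers also summed to more in young WT (76.5 to 163 CPM, with Nkg7 above background in all 3 libraries) than in old WT (29.9 to 65.0 CPM) and old KO (6.21 to 12.8 CPM). Of the B cell markers 1 was above background in 2 or more young WT libraries, and 0 of those of stroma and endothelium. The B cell markers summed to 7.33 to 82.1 CPM in young WT, 73.9 to 118 CPM in old WT and 11.9 to 165 CPM in old KO. For stroma and endothelium the sums were 1.15 to 154 CPM in young WT, 84.7 to 125 CPM in old WT and 28.2 to 50.4 CPM in old KO. Cd48, which the sort excludes, was above background in 1 young WT library only. The part of other cell types in the differences was not tested beyond these values.

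The other genes of the pathway, 87 names grouped by role, showed how much of the machinery could be read in each group. At least 2 libraries were above background for 57 of 87 genes in young WT, for 2 in old WT and for 25 in old KO. Beside these counts stand 7377 to 8122, 638 to 1126 and 2878 to 4171 protein-coding genes above background per library of the same groups. In young WT this included all 3 other subunits, all 6 other inhibitors, 17 of 19 kinases and adaptors and 16 of 19 other feedback genes, but only 3 of 11 receptors and 2 of 7 ligands. Old KO had 8 of 19 feedback genes, 6 of 22 targets and 6 of 19 kinases and adaptors above background, and old WT had 1 feedback gene and 1 ligand.

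**Figure D4:**
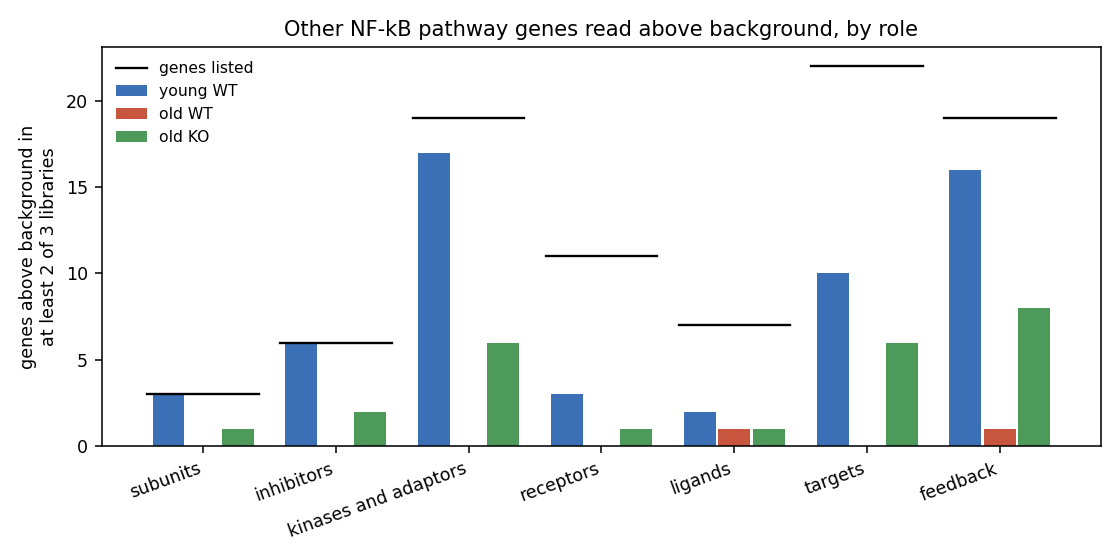
Number of other pathway genes above background in at least 2 of 3 libraries, by role, for young WT, old WT and old KO; black lines give the number of genes listed. Young WT bars come close to the lines for subunits, inhibitors, kinases and feedback genes, old WT bars are at 0 or 1, and old KO bars lie between.

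Rela, the p65 subunit that carries most activation, had 322, 254 and 443 CPM in the young WT libraries, 566, 2.54 and 29.0 CPM in the old WT libraries and 616, 1021 and 184 CPM in the old KO libraries. It did not pass the main edgeR test in any comparison. Rel and Nfkb2 were above background throughout young WT and otherwise only in old KO library 3 (86.9 and 176 CPM). Bcl3, a nuclear IkB protein, had 25.9, 36.9 and 125 CPM in young WT, at most 14.8 CPM in old WT and 10.1, 85.6 and 286 CPM in old KO, above background in every old KO library. Nfkbib, the beta form of IkB, was at 19.0 to 61.4 CPM in young WT and at most 5.51 CPM in the old libraries. Against young WT it fell by a log2 value of -3.47 ± 1.23 in old WT (edgeR adjusted p = 0.0179), and by -3.99 ± 1.25 in old KO (edgeR adjusted p = 0.0169). Nfkbie, the epsilon form, was above background only in 2 young WT libraries, and the kinase gene Ikbkb throughout young WT and in old KO library 3. Of the ligands Tnf, Il1b and Il6, the highest level in any old KO library was 3.63, 1.04 and 2.38 CPM, and none of the 3 was above background in an old library.

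In old WT against young WT, 21 of 86 tested pathway genes were called higher and 8 lower, against the 68.4% and 3.48% given above for all genes. None of the 21 was above background in 2 or more old WT libraries, and all 8 lower genes were above background in young WT. With TMM factors the split was 2 higher and 38 lower, beside 18.6% and 18.4% of all genes. With DESeq2 it was 8 and 47, beside 31.9% and 19.8%. After removal of background no pathway gene was called, beside 0.0508% of genes higher and 0.0621% lower. Among the 12 largest changes with separate ranges, the one downward was that of Ier3, a survival gene induced early by NF-kB, which had 509 to 599 CPM in young WT and 2.93 to 10.7 CPM in old WT (-6.32 ± 1.09, edgeR adjusted p = 0.000697). The other 11 (Cd83, Il10, Nos2, Lta, Il6, Il1r1, Tnfrsf11a, Sele, Il1rn, Il1a and Cxcl1) were called higher, but their mean level in old WT was at most 20.9 CPM and none was above background in any library.

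In old KO against old WT, 0 of 86 pathway genes were called by edgeR. At an unadjusted p under 0.05, 11 were higher and 14 lower, beside 953 higher and 8575 lower of the 32582 genes tested. Both directions together were 29.1% of the list, beside 29.2% of all genes tested. TMM factors gave 3 calls, all higher, where 0.457% of all genes were called, and DESeq2 15 higher and 2 lower, beside 6.23% and 0.463% of all genes. The median of -0.76 over the list stood beside -1.91 over all genes. By ranges of CPM, 4 of the 86 genes had old KO levels entirely above old WT (4.65%, beside 1.91% of all genes tested), namely Ier3, Gadd45b, Dusp1 and Birc3. The reverse held for 24 of 86 (27.9%, beside 48.8% of all genes), among them Nfkbie, Traf3, Rnf31, Ltbr, Itch and Il1r1. These names were singled out after their values were seen. Ier3 had 523, 288 and 519 CPM in old KO, close to young WT. Gadd45b, a stress gene that restrains apoptosis, had 102 to 142 CPM in young WT, 6.45 to 46.7 CPM in old WT and 468 to 912 CPM in old KO. Dusp1, the phosphatase that ends MAP kinase signalling, had 1626 to 2230 CPM in young WT, 541 to 949 CPM in old WT and 2600 to 5748 CPM in old KO. Birc3, an inhibitor of apoptosis that ligates ubiquitin at the receptor complex, had 8.27 to 13.3 CPM in old WT and 397, 30.3 and 204 CPM in old KO.

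In old KO against young WT, 19 pathway genes were called higher and 7 lower, where 52.7% and 3.93% of all genes were. With TMM factors these counts were 1 and 15, beside 6.92% and 5.84% of all genes. With DESeq2 they were 3 and 31, beside 14.3% and 13.7%. After removal of background they were 0 and 0, beside 0.0226% and 0.0%. Only 2 of the 19 were above background in 2 or more old KO libraries, Irak4 (5.92 ± 1.45, adjusted p = 0.00933), a kinase below interleukin-1 receptors, and Birc3 (4.04 ± 1.48, adjusted p = 0.0306). Nos2, Il6st, Plau, Lta, Il6, Il1rn and Tnip3 were the other genes of this direction with large changes and separate ranges. None of these but Il6st and Tnip3 was above background in any library. The lower genes included Bcl2l1 (-4.33 ± 1.28, adjusted p = 0.0139), a survival gene, Cxcl10 (-4.03 ± 1.53, adjusted p = 0.0356), an interferon-induced chemokine, and Rnf31 (-3.86 ± 1.37, adjusted p = 0.0277, edgeR), a subunit of the linear ubiquitin ligase.

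Within the set the genes moved only loosely together. Of the 45 pairs, 38 had a positive Pearson r between log2(CPM + 1) values over the 9 libraries, with a median of 0.39 and a highest value of 0.75, for Nfkbia and Socs3. The lowest value was -0.28, for Zfp36 and Ptgs2. The genes outside the list closest to the mean of the 10 were Pan3 (r = 0.88), Actb (0.88), Sept6 (0.87), Grasp (0.86), Lmna (0.85) and Tmsb10 (0.85), among 8928 genes with a mean of at least 10 CPM. Nfkbia was nearest to Myl12b (r = 0.90), Ly6e (0.88) and Hspa1a (0.87), Zfp36 to Cdk4 (0.97), Bsg (0.97) and Plekhj1 (0.97), and Socs3 to Acot2 (0.96), Insig1 (0.94) and Aldoa (0.93). These values describe the 9 libraries, which differ together in depth and in how much of their sequence lay outside genes.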

How the data were processed

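Raw gene counts of all 9 libraries were deposited by the authors in a single table. Named in the submitters' processing notes are mm10, STAR 2.6.1d, Trim Galore 0.6.2, HTSeq 0.10.0 and edgeR 3.24.3. Per the labels' protocols the cDNA was amplified for 13 cycles and read as pairs of 150 bp. The annotation and strand setting of the counting were not given in the sources used here. The 5 lines that name no gene stayed out of library sizes. Symbols, coordinates and exon lengths (all annotated exons of a gene merged) come from GENCODE M21 (52403 identifiers matched).

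Counts were tested with edgeR 4.0.16 in R 4.3.3: quasi-likelihood F test, all 9 libraries, 1 mean per group, library totals in genes as the only scaling, filterByExpr, Benjamini-Hochberg adjustment over 32582 genes, threshold 0.05. Called means past it, and fold changes are log2 values with SE. Library totals were preferred to TMM because TMM moves all genes by several log2 units between groups that differ in background. Alternatives were TMM factors, DESeq2 1.42.0, no filter, a stricter filter (10 CPM in 3 libraries), the 6 compared libraries, a replicate block, removal of background, and leaving out each library. Background was the read density over exons of 1092 olfactory receptor genes, without the densest 1%. Scripts were tested on simulated data. Members and lists were chosen with earlier results of these data known. Of the pathway list the text names a fixed set of 10 genes and, where more than 12 were called, the 12 largest changes with separate CPM ranges; likeness names the 6 genes closest to the mean and 3 for each of Nfkbia, Zfp36 and Socs3. The Python steps used pandas 2.3.3, and figures matplotlib 3.10.9.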

Additional observations from a re-analysis of the deposited data

How the results depend on the processing

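Under the 7 other settings 210 log2 fold changes of the 10 genes were recomputed. Of these, 155 kept direction and side of the threshold, 12 lost the call, 18 gained one and 25 changed sign. Counted among the 155 are the Ptgs2 values of DESeq2, which kept direction but have no adjusted p. Of 270 recomputed without 1 library these numbers were 241, 7, 3 and 19. For old WT against young WT, members called went from 3 to 7 (TMM factors), 9 (DESeq2) and 1 (background removed), with 3 to 4 when 1 library was left out; pathway genes from 29 to 55 (DESeq2), 10 (stricter filter) and 0 (background removed), 24 to 33 without 1 library; and all genes from 23414 to 12058 (TMM), 3091 (stricter filter) and 20 (background removed), 23393 to 27869 without 1 library. For old KO against old WT, members went from 0 to 1 (TMM), 6 (DESeq2), 2 (6 libraries) and 1 (background removed), 0 without any 1 library; pathway genes from 0 to 3 (TMM), 17 (DESeq2), 1 (no filter), 1 (stricter filter) and 16 (6 libraries); all genes from 2 to 149 (TMM), 2181 (DESeq2), 116 (no filter), 16 (stricter filter), 8046 (6 libraries) and 16 (background removed), 0 to 5 without 1 library. For old KO against young WT, members went from 4 to 2 (TMM), 2 (DESeq2) and 0 (background removed), 2 to 5 without 1 library; pathway genes from 26 to 16 (TMM), 7 (stricter filter), 17 (replicate block) and 0 (background removed), 12 to 26 without 1 library; all genes from 18438 to 4158 (TMM), 9154 (DESeq2), 2764 (stricter filter), 11182 (6 libraries) and 4 (background removed), 12329 to 18999 without 1 library. The share of called genes that were higher was 95.2% with library totals, 50.3% with TMM and 61.7% with DESeq2 in old WT against young WT, and 93.1%, 54.3% and 51.1% in old KO against young WT. Apart from the smaller number of genes or libraries that the filters and the 6-library fits use by construction, the cause was not tested.

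Signs that changed in old WT against young WT were, with TMM and DESeq2, Nfkbia (-3.59, -3.44), Nfkbiz (-4.20, -4.10), Tnfaip3 (-3.00, -2.85) and Socs3 (-3.86, -3.61). Leaving out 1 library gave Nfkbia -0.52 to 1.12, Nfkbiz -3.03 to 0.81, Relb -0.79 to 0.28, Tnfaip3 -2.88 to 1.28, Socs3 -3.86 to 0.97 and Icam1 -1.38 to 0.51. In old KO against old WT they were Relb (2.05 TMM, 1.60 DESeq2, 0.35 background removed; -0.94 to 0.21 without 1 library), Cxcl2 (1.64 TMM, 1.17 DESeq2; -1.49 to 4.60) and Ptgs2 (-1.83 to 3.61). In old KO against young WT they were Nfkbia (-0.0038 DESeq2), Nfkbiz (-0.080 DESeq2), Nfkb1 (-1.95 TMM, -2.35 DESeq2; -0.50 to 0.66), Relb (-1.15 to 0.090) and Zfp36 (0.047 background removed; -0.15 to 0.11). Removal of background moved the old WT means of Nfkb1 (to 8.98 CPM) and Icam1 (to 11.8 CPM) by more than 1 SD and the other 28 means by less.

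Replicate numbers are shared between groups, but deviations of same-numbered libraries correlated by only -0.021 to 0.039 over 7142 genes. No pairing by number was detected, though with the spread between these libraries a weak one could be missed. With the number as a replicate block, 3, 0 and 4 members were called in the 3 comparisons, and the block turned Nfkbiz (-1.62), Relb (0.23), Tnfaip3 (-0.59) and Socs3 (-0.80) in old WT against young WT, Cxcl2 (1.16) in old KO against old WT, and Nfkb1 (-0.032) and Relb (0.0076) in old KO against young WT. Depth was lowest in old WT, where 3 counts are worth up to 0.954 CPM. Nfkb1, Relb, Ptgs2 and Icam1, 4 of the 10 genes, were above background in 0 old WT libraries. Their counts there, 30 to 167, all reached the minimum count of the background rule. They fell short of the multiple of predicted background that the rule also requires.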
